A study of Mus musculus with 12 samples.

Results

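The Hox genes are 39 protein-coding genes in 4 clusters, and 43 of the 76042 accessible regions found in RAW264.7 macrophage libraries lay within 10 kb of a Hox gene. The genes were those whose RefSeq symbol is Hoxa, Hoxb, Hoxc or Hoxd followed by a number. The regions came from merging the overlapping or touching ATAC-seq peaks of 12 libraries and keeping those found in at least 2 peak lists. RAW264.7 is a macrophage-like line from a mouse tumour induced by Abelson leukaemia virus, and ATAC-seq uses a transposase to cut and tag accessible DNA. In one stable line doxycycline switched on Nur77, the nuclear receptor encoded by Nr4a1, and in the other it switched on green fluorescent protein (GFP). Cells of all groups received 1 µg/ml doxycycline for 18 h. The 4 groups of 3 libraries were the Nur77 line with lipopolysaccharide (LPS, a bacterial cell wall component, 500 ng/ml for 1 h), the Nur77 line without LPS, the GFP line with LPS and the GFP line without LPS. Whether a line is 1 clone or a pool of cells is not given in the sources used here. Each transgene is represented by 1 line, so transgene and line cannot be told apart. Since no label says that the replicates of a group came from different cultures, p-values measure the spread between these libraries, which may be technical.

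Hox genes encode homeodomain transcription factors that specify position along the head-to-tail axis of the embryo. Within a cluster they lie in the order of the body levels at which they act, from the low-numbered anterior genes to the high-numbered posterior genes. In blood formation, Hoxa9, Hoxa10 and several Hoxb genes are active in stem and progenitor cells together with the TALE cofactors of the Meis and Pbx families, and their activity falls as myeloid cells mature. Polycomb complexes keep silent Hox genes compacted, and Trithorax-type complexes such as those of Kmt2a (MLL1) maintain active ones. The clusters also hold microRNA genes of the miR-10 and miR-196 families and long non-coding RNA genes such as Hotair.

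Promoter windows with an accessible region are shown first, since they carry the promoter-level result for the Hox genes with a window at hand. RefSeq windows of 300 bases, from 250 bases before to 50 after the annotated start (build GRCm38.p6), were at hand for 22 of the 39 Hox genes, as 24 windows. An accessible region covered 4 of the 24 windows, and it covered each of those in full. The Hoxa3 window lies on the minus strand at chr6:52213018-52213317 and the Hoxa10 window on the minus strand at chr6:52240805-52241104. The Hoxb4 window lies on the plus strand at chr11:96318017-96318316 and the Hoxc4 window on the plus strand at chr15:103034145-103034444. Capitals mark matches to the motifs described after the sequences.
Hoxa3 promoter window: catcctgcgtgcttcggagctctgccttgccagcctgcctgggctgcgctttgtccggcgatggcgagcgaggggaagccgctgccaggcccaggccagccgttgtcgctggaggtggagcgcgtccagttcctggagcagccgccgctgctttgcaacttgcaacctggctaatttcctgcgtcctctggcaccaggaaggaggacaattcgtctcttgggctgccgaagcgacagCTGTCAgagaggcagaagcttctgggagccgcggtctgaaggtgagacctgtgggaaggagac
Hoxa10 promoter window: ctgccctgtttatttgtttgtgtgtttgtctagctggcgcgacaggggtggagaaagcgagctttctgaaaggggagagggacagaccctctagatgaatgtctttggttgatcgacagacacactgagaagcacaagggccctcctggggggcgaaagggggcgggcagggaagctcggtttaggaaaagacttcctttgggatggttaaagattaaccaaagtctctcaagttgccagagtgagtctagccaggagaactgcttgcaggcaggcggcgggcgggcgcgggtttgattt
Hoxb4 promoter window: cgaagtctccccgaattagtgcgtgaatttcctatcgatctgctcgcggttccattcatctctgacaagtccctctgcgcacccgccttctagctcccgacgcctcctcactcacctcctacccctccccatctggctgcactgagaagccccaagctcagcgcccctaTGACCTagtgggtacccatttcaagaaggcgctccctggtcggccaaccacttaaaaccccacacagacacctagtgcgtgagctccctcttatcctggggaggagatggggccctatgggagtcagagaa
Hoxc4 promoter window: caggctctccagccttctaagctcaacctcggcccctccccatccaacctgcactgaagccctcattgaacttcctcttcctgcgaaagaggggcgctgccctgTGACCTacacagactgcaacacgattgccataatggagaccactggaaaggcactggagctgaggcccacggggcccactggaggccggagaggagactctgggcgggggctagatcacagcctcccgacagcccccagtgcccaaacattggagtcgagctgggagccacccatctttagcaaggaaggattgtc

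The windows of Hoxa3, Hoxb4 and Hoxc4 were covered by a region called in all 12 libraries, and that of Hoxa10 by a region called in 10. The regions covered 16.67% of the Hox windows, against 53.18% of the 21262 windows of all protein-coding genes. Of the Hox windows, 10 lay in the Hoxa, 3 in the Hoxb, 1 in the Hoxc and 10 in the Hoxd cluster. The Hox share therefore rests mostly on Hoxa and Hoxd. None of the 10 windows in the Hoxd cluster had a region. The median number of CpG dinucleotides was 13 in the 4 windows with a region and 17.5 in the 20 without. Over all genes, the windows called in all 12 libraries had a median of 22 CpG dinucleotides.

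Both strands of each window were searched for the AP-1 motif TGANTCA, the nuclear receptor hexamer AGGTCA, the homeodomain core TAATTA and the TALE cofactor motif TGACAG. The AP-1, nuclear receptor and TALE motifs share the letters TGA, read on the given or the opposite strand, but no motif contains another. The nuclear receptor hexamer occurred in 7 Hox windows (29.17%), against 14.72% of all promoter windows, and once each in the windows of Hoxb4 and Hoxc4, on the strand opposite to the one printed. The TALE motif occurred in 2 Hox windows (8.33%, against 18.67% of all), 1 of which was the Hoxa3 window, again on the opposite strand. The homeodomain core occurred in 2 Hox windows (8.33%, against 4.53% of all) and the AP-1 motif in 1 (4.17%, against 6.99% of all), none of them among the 4 windows with a region. A match describes these letters only.

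The microRNAs of the clusters are shown next because regions lie beside their genes. Capitals mark the seed, bases 2 to 8 of the mature RNA as given by RefSeq.
miR-10a-5p: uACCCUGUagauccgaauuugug
miR-10b-5p: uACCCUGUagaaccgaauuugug
miR-196a-5p: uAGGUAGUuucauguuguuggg
miR-196b-5p: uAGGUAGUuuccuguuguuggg

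The miR-10 pair share the seed ACCCUGU and the miR-196 pair the seed AGGUAGU. The hairpin of miR-10a, upstream of Hoxb4, lay 644 bp from a region called in all 12 libraries, the same region that covered the Hoxb4 window. The miR-10b hairpin, in the Hoxd cluster, lay 2653 bp from a region called in 5 libraries. miR-196a is encoded by 2 genes: the hairpin in the Hoxb cluster touched a region called in 2 libraries, and the one in the Hoxc cluster lay 1679 bp from a region called in 8. The miR-196b hairpin, in the Hoxa cluster, lay 7565 bp from the nearest region, which was called in all 12 libraries.

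Each library was represented by 1 peak list, and read depth is not part of these lists, so the depth behind a peak is unknown. The lists held 44790 to 59858 peaks in the Nur77 LPS group, 36184 to 55656 in the untreated Nur77 group, 48275 to 81467 in the GFP LPS group and 54515 to 65061 in the untreated GFP group. The shortest list was replicate 2 of the untreated Nur77 group and the longest replicate 3 of the GFP LPS group. A call means that a peak of that library overlapped the region by at least 1 bp. The fold over background and the −log10 q of a peak are the authors' own values, and a percentile is where the peak stands in its own list when ordered by −log10 q, with 100 the strongest. Of all protein-coding genes, 50.21% had a region called in all 12 libraries within 1000 bp of a gene end. All 14 macrophage marker genes had one, against 2 of 7 for T cells, 1 of 6 for B cells, 1 of 7 for fibroblasts, 0 of 5 for epithelium and 1 of 5 for neurons. Gene-end regions of these other cell types that separated groups lay at Ms4a1 (0 of 3 Nur77 LPS and 3 of 3 GFP LPS libraries), at Ebf1 and Map2 (0 of 3 untreated Nur77 and 3 of 3 untreated GFP libraries each; Ebf1 also 0 of 3 GFP LPS libraries) and at Pdgfrb (3 of 3 Nur77 LPS and 0 of 3 untreated Nur77 libraries), and among the macrophage markers at Lyz2 (0 of 3 Nur77 LPS and 3 of 3 GFP LPS libraries at one region, 0 of 3 untreated Nur77 and 3 of 3 untreated GFP libraries at another). In the rank comparison described later, Lyz2 was lower in the Nur77 line by limma with LPS (44.19 ± 4.07, against 62.32 ± 7.29 in the GFP LPS group; adjusted p = 0.0375) and without (43.76 ± 5.09, against 69.60 ± 2.91 in the untreated GFP group; adjusted p = 0.0053). A region at Tyrobp was lower with LPS in the GFP line (56.21 ± 12.12, against 87.52 ± 3.31 without; limma adjusted p = 0.0004) and in the Nur77 line (67.42 ± 6.29, against 88.05 ± 4.90 without; limma adjusted p = 0.01). Fcgr1 was lower with LPS in the GFP line, and 2 regions at Csf1r were lower with LPS in the Nur77 line, 1 of them also higher in the untreated Nur77 than in the untreated GFP group (SD, n = 3 each; limma adjusted p from 0.0128 to 0.0484). The part of these markers in the Hox results was not tested. A peak averages over the cells of a library, so fewer open cells and less open chromatin per cell cannot be told apart. Peak lists do not measure expression, so the induction of Nur77 and the activity of the Hox genes were not checked here.

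All 4 Hox clusters held accessible regions, but unevenly. The Hoxb cluster (chr11:96194316-96368254, 10 genes over 173.94 kb) held 16 regions, of which 7 were called in all 12 libraries, and together they covered 23.45 kb. The Hoxa cluster (chromosome 6, 11 genes over 105.51 kb) held 9 regions, of which 4 were called in all 12, covering 12.9 kb. The Hoxc cluster (chr15:102921131-103036856, 9 genes over 115.73 kb) held 14 regions, of which 3 were called in all 12, covering 13.94 kb. The Hoxd cluster (chr2:74668225-74765142, 9 genes over 96.92 kb) held 4 regions, of which 1 was called in all 12, covering 2.66 kb. Counted per 100 kb of cluster and flank, regions called in all 12 libraries numbered 3.61 in Hoxb, 3.19 in Hoxa, 2.21 in Hoxc and 0.86 in Hoxd. In lists of equal length, each cut to its 36184 strongest peaks (the length of the shortest list), they numbered 2.58 in Hoxb, 2.39 in Hoxa, 0.0 in Hoxc and 0.86 in Hoxd, so that no Hoxc region was then called in all 12 and the order of Hoxc and Hoxd turned round.

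**Figure D1:**
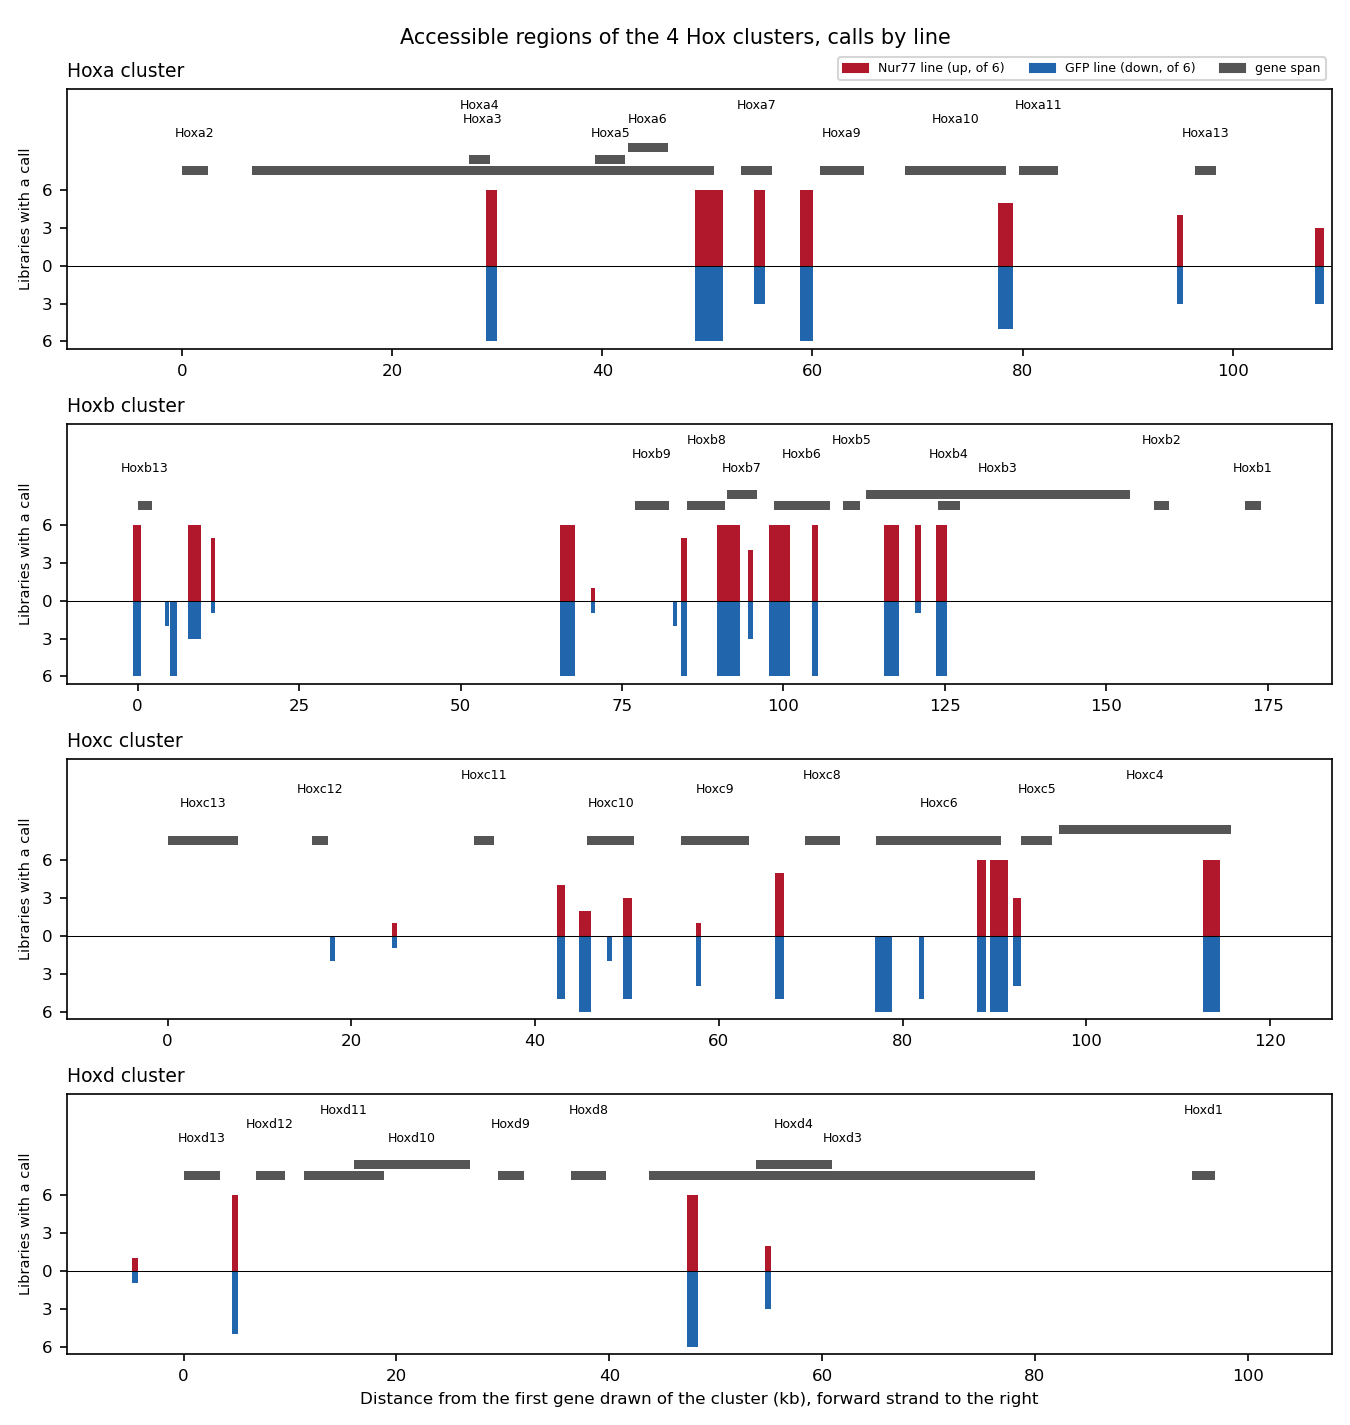
Map of the 4 Hox clusters, with distance from the first gene drawn of each cluster in kb on the x axis and gene spans as grey boxes. Bars mark 41 accessible regions, drawn at least 0.6 kb wide, with the number of Nur77 libraries (of 6) upward and of GFP libraries (of 6) downward. Hoxd shows 1 region at full height in both directions, and in Hoxc the upward bars are shorter than the downward ones in 9 of 14 regions.

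Of the 43 regions, 25 overlapped a Hox gene and 18 lay between Hox genes or in the flanks of a cluster. The share called in all 12 libraries was 15 of 43 (34.88%), against 34.69% of all 76042 regions, and the median region was called in 9 libraries in both sets. The median within-list percentile of a Hox region, averaged over the libraries that called it, was 41.35, against 37.08 over all regions. Among the regions called in every library the order was the other way, with a median of 59.59 for Hox regions and 73.62 for all. With full lists, the Hox regions were thus called as often as regions in general. In lists of equal length, 9 of the 26 Hox regions found in at least 2 lists were called in all 12. Over all regions in those lists, 21770 of 45642 were. The Hox regions called throughout in full lists ranked lower than regions called throughout in general. The width of Hox regions differed little from that of all regions, with medians of 971 bp and 901 bp.

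Seen from the genes, the Hox clusters were less often covered than protein-coding genes in general. A region overlapped 17 of the 39 Hox genes (43.59%), against 69.03% of 21883 protein-coding genes, and a region called in all 12 libraries overlapped 12 Hox genes (30.77%, against 57.03%). A region lay within 1000 bp of a gene end at 18 Hox genes (46.15%, against 59.47%). The genes were grouped by number as anterior (1 to 3), central (4 to 8) and posterior (9 to 13). A region called in all 12 libraries overlapped 4 of 8 anterior, 7 of 15 central and 1 of 16 posterior genes, the last being Hoxb13. By gene ends the order differed. Such a region lay within 1000 bp of an end at 2 of 8 anterior, 6 of 15 central and 2 of 16 posterior genes. Any region lay there at 2 anterior, 9 central and 7 posterior genes. The overlap counts take no account of gene length, and a longer span has more room for a region. Among the anterior genes, the spans of Hoxa3, Hoxb3 and Hoxd3 are long enough to contain neighbouring Hox genes. For 17 genes no region overlapped the gene or lay within 1000 bp of an end: Hoxa2, Hoxa5, Hoxa6 and Hoxa13, Hoxb1, Hoxb2 and Hoxb5, Hoxc8, Hoxc11 and Hoxc13, and Hoxd1, Hoxd8, Hoxd9, Hoxd10, Hoxd11, Hoxd12 and Hoxd13. Genes of both ends of a cluster, such as Hoxd1 and Hoxd13, were thus among those without a region.

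In the Hoxa cluster the region at chr6:52211227-52213859, called throughout, covers the Hoxa3 promoter window and one end of Hoxaas3, an antisense transcript gene, with a percentile of 71.08 ± 4.58 (SD, n = 12). Its position is between Hoxa6 and Hoxa7, because the RefSeq span of Hoxa3 runs across Hoxa4, Hoxa5 and Hoxa6. A region at the boundary of Hoxa4 (chr6:52191326-52192421) averaged 41.35 ± 12.78, and one 581 bp from Hoxa9 (chr6:52221261-52222515) averaged 57.36 ± 12.64 (SD, n = 12 each). The latter lay beyond the end of Hoxa9 opposite to its promoter window (chr6:52227321-52227620, minus strand), and that window had no region. Hoxa9 and Hoxa10 are the Hox genes best known from acute myeloid leukaemia. Hoxa10 had its region (chr6:52240110-52241550) called in 10 libraries at 41.08 ± 12.02, and no region overlapped Hoxa9 itself. Further regions lay at Hoxa7, called in 9 libraries and described with the line comparison, and at 1.5 kb and 9.4 kb from Hoxa13, called in 7 and 6 libraries.

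The Hoxb cluster was the most widely accessible, with its regions called throughout running from Hoxb8 to Hoxb4. The strongest of them, Hoxb3 region 1 (chr11:96309872-96312180; regions of 1 gene are numbered in coordinate order), averaged a percentile of 70.80 ± 11.02 (SD, n = 12). The region at chr11:96317919-96319671, over the start of Hoxb4, averaged 65.92 ± 9.02. Hoxb4 is known for expanding blood stem cells when overexpressed. Hoxb6 had 2 regions, chr11:96292005-96295310 at 65.17 ± 13.33 and chr11:96298812-96299628 at 50.96 ± 11.26, both over the antisense transcript gene Hoxb5os (SD, n = 12 each). A region across the ends of Hoxb8 and Hoxb7 (chr11:96284058-96287654) averaged 59.59 ± 12.75, and at the other end of Hoxb8 a region was called in 11 libraries at 58.77 ± 9.05.

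Beyond this block, a region 9.3 kb from Hoxb9 (chr11:96259755-96262072), over the long non-coding RNA gene Gm53, was called throughout at 64.89 ± 10.98 (SD, n = 12). A region at the first base of Hoxb13 (chr11:96193645-96194905) was called throughout at 42.25 ± 19.74, the widest spread among the 15. Hoxb13 is a posterior gene known from prostate. No region lay on Hoxb1, Hoxb2 or Hoxb5, and the next region past Hoxb1 lay outside the 10 kb distance.

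In the Hoxc cluster no region exceeded a mean percentile of 55.11. Of its regions called throughout, Hoxc6 region 3 (chr15:103009221-103010162) averaged 41.46 ± 18.68 and Hoxc6 region 4 (chr15:103010649-103012618) averaged 42.08 ± 16.94. The third, at the Hoxc4 promoter window (chr15:103033821-103035655), averaged 49.11 ± 13.99 (SD, n = 12 each). The highest mean belonged to a region 2.3 kb from Hoxc8 (chr15:102987191-102988193), called in 10 libraries at 55.11 ± 9.85, and a region 2.4 kb from Hoxc10 (chr15:102963451-102964421) was called in 9 at 54.05 ± 12.54. Hotair, a long non-coding RNA gene of this cluster that has been tied to Polycomb in human cells, carried a region called in 2 libraries at a percentile of 9.0.

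The Hoxd cluster carried 1 region called throughout, and it ranked higher than any in Hoxc. It lay in Hoxd3 and over Hoxd3os1, an antisense transcript gene (chr2:74715562-74716557), at a percentile of 72.73 ± 8.61 (SD, n = 12). Its fold over background was 39.75, 18.02 and 34.75 in the Nur77 LPS libraries, 29.00, 15.70 and 31.49 in the untreated Nur77 libraries, 15.59, 22.08 and 30.61 in the GFP LPS libraries and 23.45, 30.55 and 33.18 in the untreated GFP libraries. The groups overlapped, and the summits of its strongest peaks lay within 27 bp of each other over the 12 libraries. A region 1.2 kb from Hoxd13 (chr2:74672769-74673379) was called in 11 libraries at 28.67 ± 11.63, one 4.4 kb from Hoxd13 in 2, and one at Hoxd4 in 5.

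**Figure D2:**
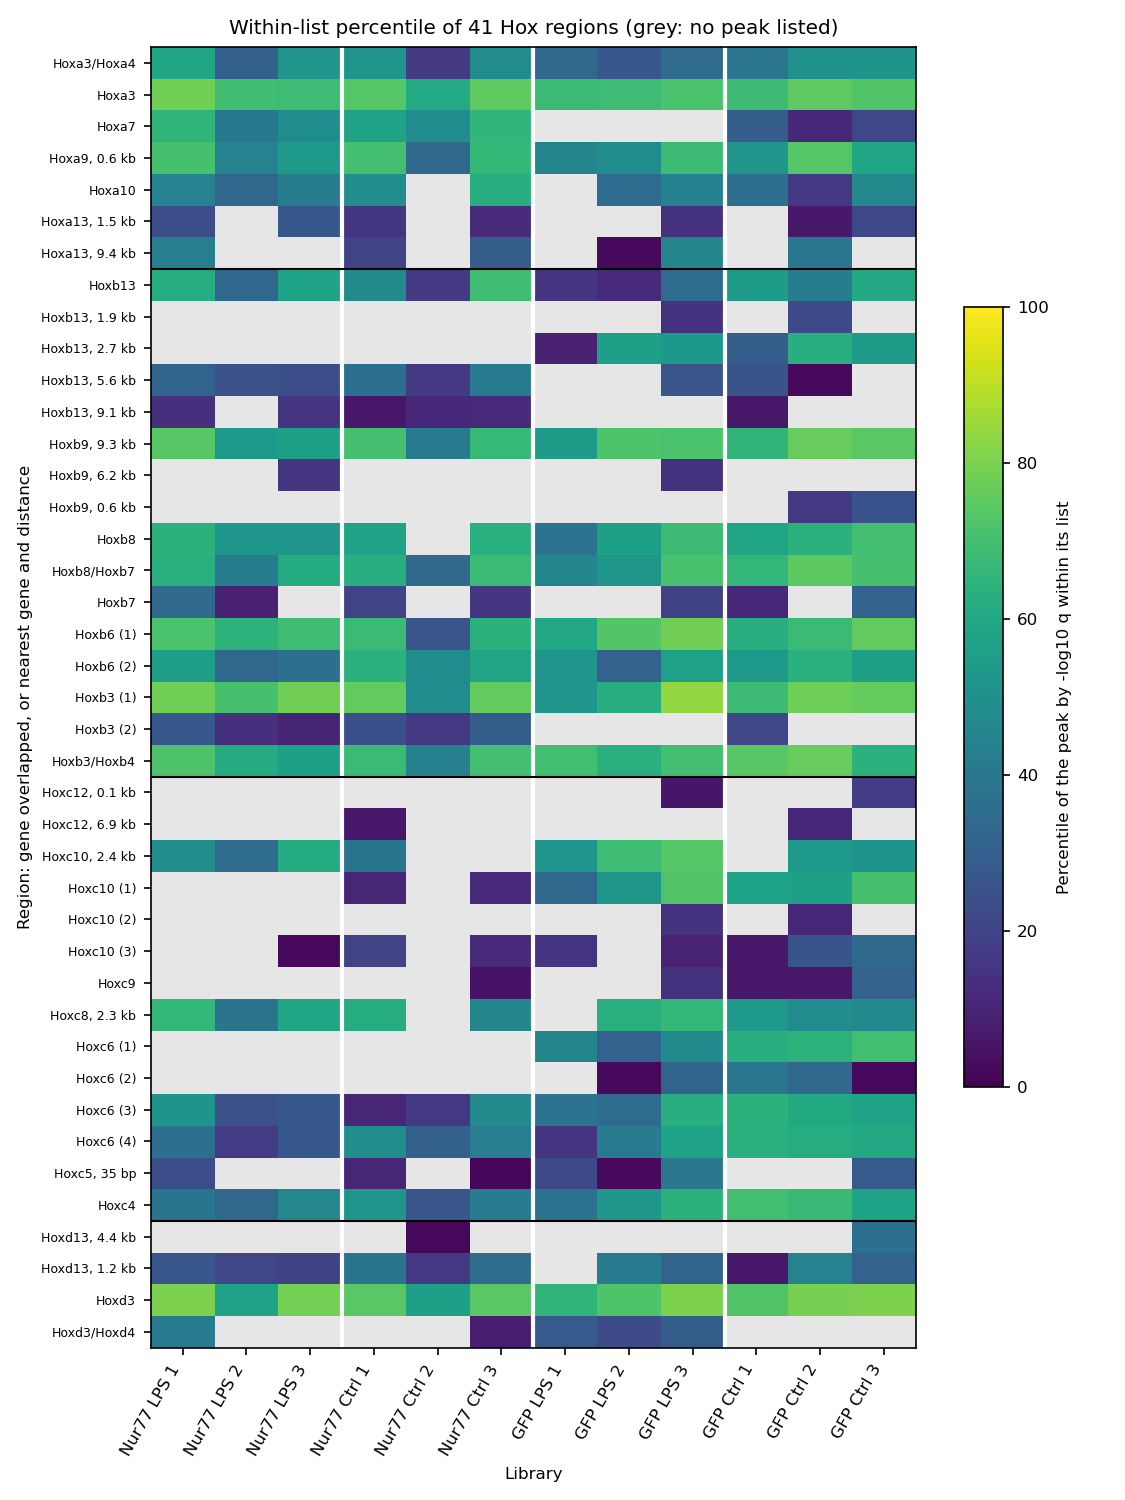
Within-list percentile of 41 Hox regions (rows, in coordinate order within each cluster and labelled by the gene overlapped or the nearest gene and its distance) in each of the 12 libraries (columns). Colour runs from 0 to 100 and grey marks no listed peak. The first Hoxc6 row is grey in the 6 Nur77 libraries.

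Just inside the 10 kb distance lay the regions 9074 bp from Hoxb13 (called in 6 libraries, percentile 10.77), 9257 bp from Hoxb9 (12 libraries, 64.89) and 9424 bp from Hoxa13 (6 libraries, 29.99). Just outside lay a region 15115 bp from Hoxb1 (9 libraries, 28.24), and the next were 27096 and 28724 bp from Hoxc13 (7 libraries at 28.77 and 4 libraries at 17.85).

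Hoxc regions were listed in fewer Nur77 than GFP libraries, a difference given here as counts, with no test over the regions of a cluster. The Nur77 LPS libraries called 6, 5 and 6 of the 14 Hoxc regions and the untreated Nur77 libraries 9, 3 and 8, against 8, 9 and 13 in the GFP LPS libraries and 9, 12 and 12 in the untreated GFP libraries. The line ranges thus met at 8 and 9 calls, and the Nur77 LPS group lay below both GFP groups without overlap. Over the 6 libraries of a line, Hoxc regions were called in 44.0% of the pairs of region and library in the Nur77 line and in 75.0% in the GFP line, while over all regions these shares were 60.8% and 71.8%. In Hoxa the shares were 83.3% in the Nur77 line and 74.1% in the GFP line, in Hoxb 71.9% and 69.8%, and in Hoxd 62.5% in both. Of the 14 Hoxc regions, 9 were called in fewer Nur77 than GFP libraries and none in more. Some of the 9, at Hoxc6, Hoxc10 and Hoxc12, were listed in GFP libraries alone. They met the rule of at least 2 lists through that line, so their direction was fixed by the rule. The same holds for such regions among all 76042. Of the 9 Hoxa regions, none was called in fewer Nur77 than GFP libraries and 3 in more. Over all 76042 regions, 40.23% were called in fewer and 12.78% in more.

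The Nur77 lists were on the whole shorter. Once the lists were cut to equal length, Hoxc regions were called in 25% of the pairs in the Nur77 line and 44.05% in the GFP line, with 7 of the 14 called in fewer Nur77 than GFP libraries and none in more. Over all 45642 regions found in at least 2 such lists, the shares were 74.17% in the Nur77 line and 74.91% in the GFP line, with 21.83% of regions called in fewer and 21.55% in more. In Hoxa the shares were 66.67% in the Nur77 line and 44.44% in the GFP line. The Hoxc and Hoxa values count all 14 and 9 full-list regions, also those found in fewer than 2 cut lists. The 45642 regions leave such regions out, so the values of a cluster and of all regions are not on the same base. Single libraries with full lists did not all differ: untreated Nur77 replicate 1 and untreated GFP replicate 1, which called 65.6% and 65.5% of all regions, each called 9 Hoxc regions.

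**Figure D3:**
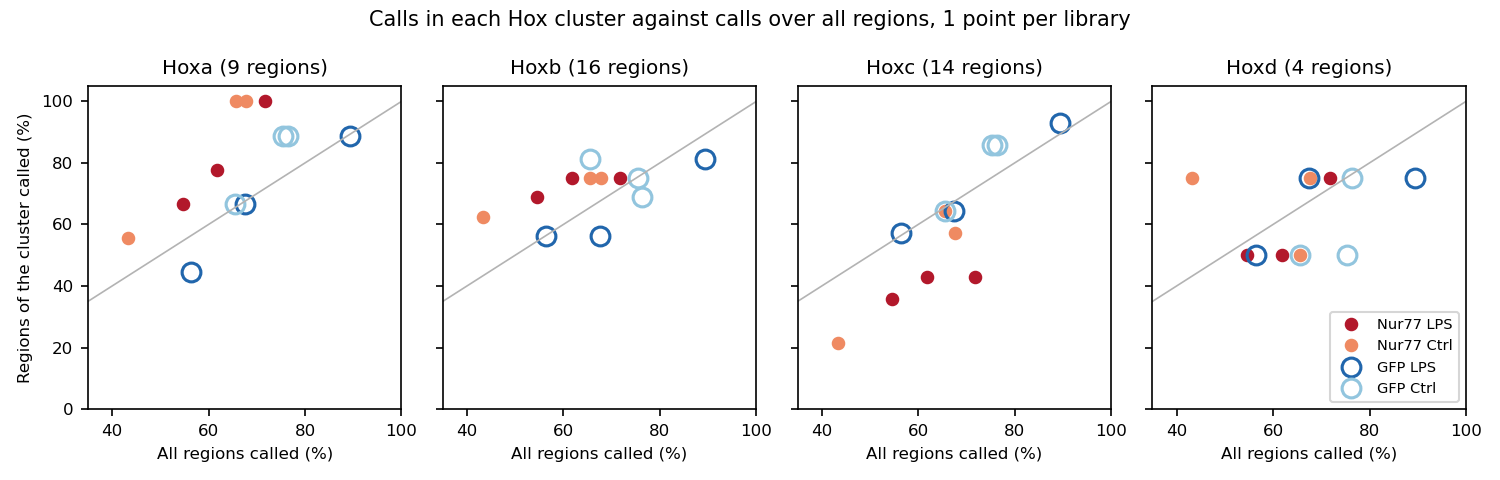
Share of the regions of each Hox cluster called (y axis, percent) against the share of all 76042 regions called (x axis, percent), 1 point per library, with filled points for the Nur77 line and open circles for the GFP line. The grey line marks equal shares. In Hoxc the Nur77 points lie between 21.4% and 64.3% and the GFP points between 57.1% and 92.9%.

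Without LPS, 3 Hox regions were called in 0 of 3 Nur77 libraries and in 3 of 3 GFP libraries, and none the other way. Such separation was seen for 3.4% of all regions in the first direction and 0.308% in the second. This balance was gone in lists of equal length, with 2 Hox regions called in none of the Nur77 and all of the GFP libraries (2.4% of all regions in those lists) and 2 the other way (1.51%). With LPS, 3 Hox regions were called in 0 of 3 Nur77 and 3 of 3 GFP libraries (2.18% of all regions) and 2 in 3 of 3 Nur77 and 0 of 3 GFP libraries (0.304% of all regions). The balance turned round in lists of equal length, with 1 Hox region in the first direction (2.4% of all regions in those lists) and 3 in the second (1.67%), the 3 being at Hoxa7, Hoxa10 and Hoxb13. With 3 libraries against 3 the smallest two-sided exact p is 0.1, so these separations were not tested. Over both treatments, 2 Hox regions were called in none of the 6 Nur77 and all 6 GFP libraries (0.568% of all regions). None was called in all 6 Nur77 and no GFP library (0.0579% of all regions). In lists of equal length, neither of the 2 was called in all 6 GFP libraries.

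Clearest of these in full lists was Hoxc6 region 1, chr15:102998075-102999993, over the lower-coordinate end of Hoxc6, a central gene that acts at thoracic levels. No peak was listed in any Nur77 library with or without LPS. Its fold over background was 9.92, 7.76 and 9.80 in the GFP LPS libraries and 16.15, 16.80 and 21.50 in the untreated GFP libraries. The lowest fold listed anywhere in a Nur77 list was 3.98 to 4.34, depending on the library, so the GFP values lay above the level at which Nur77 lists began. The 3 GFP LPS values lay below the 3 untreated GFP values. In lists of equal length it was called in none of 6 Nur77 libraries and in 4 of 6 GFP libraries, and at a −log10 q of at least 5 in none and 6.

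The second was a region 2.7 kb from Hoxb13, chr11:96199299-96200416, over the long non-coding RNA gene Gm30134. No Nur77 library listed a peak there. Its fold was 4.96, 13.73 and 11.43 in the GFP LPS libraries and 7.29, 15.78 and 13.55 in the untreated GFP libraries, so the GFP groups overlapped. In lists of equal length it was called in none of 6 Nur77 and 3 of 6 GFP libraries. On the neighbouring stretch the counts ran the other way: a region 5.6 kb from Hoxb13 was called in 6 Nur77 and 3 GFP libraries, and one 9.1 kb away in 5 Nur77 and 1 GFP library.

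A further pair of Hoxc regions separated the lines in 1 treatment. Hoxc6 region 2 (chr15:103002862-103003340) had no peak in any Nur77 library, a peak in 2 GFP LPS libraries (4.18 and 6.94 fold in replicates 2 and 3) and in all untreated GFP libraries (8.86, 7.64 and 4.21 fold). The peaks of 4.18 and 4.21 fold stood at percentiles of 2.40 and 1.97 in their lists and the other 3 between 32.37 and 39.20. At equal list length 1 GFP library called Hoxc6 region 2. Hoxc10 region 1 (chr15:102965847-102967201), over the lower-coordinate end of this posterior gene, had no peak in the Nur77 LPS libraries and peaks of 5.12 and 5.32 fold in untreated Nur77 replicates 1 and 3. Its peaks were 7.80, 12.53 and 21.63 fold in the GFP LPS libraries and 14.07, 13.24 and 22.43 fold in the untreated GFP libraries, so every GFP value lay above both Nur77 values. Hoxc10 region 1 was called in lists of equal length in none of 6 Nur77 and all 6 GFP libraries.

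The reverse pattern was found at Hoxa7 and in Hoxb3. The Hoxa7 region (chr6:52216844-52217947), inside this central gene, had peaks of 21.64, 11.41 and 13.03 fold in the Nur77 LPS libraries and 15.92, 12.84 and 22.18 fold in the untreated Nur77 libraries. It had no peak in the GFP LPS libraries and peaks of 7.29, 5.09 and 6.54 fold in the untreated GFP libraries, so all Nur77 values lay above all GFP values. In lists of equal length it was called in all 6 Nur77 libraries and in none of the 6 GFP libraries. Hoxb3 region 2 (chr11:96314678-96315585) had peaks of 7.55, 6.01 and 5.58 fold in the Nur77 LPS libraries and 6.82, 6.42 and 7.98 fold in the untreated Nur77 libraries, no peak in the GFP LPS libraries and 1 of 6.25 fold in untreated GFP replicate 1. In lists of equal length it was called in 1 Nur77 library and no GFP library.

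**Figure D4:**
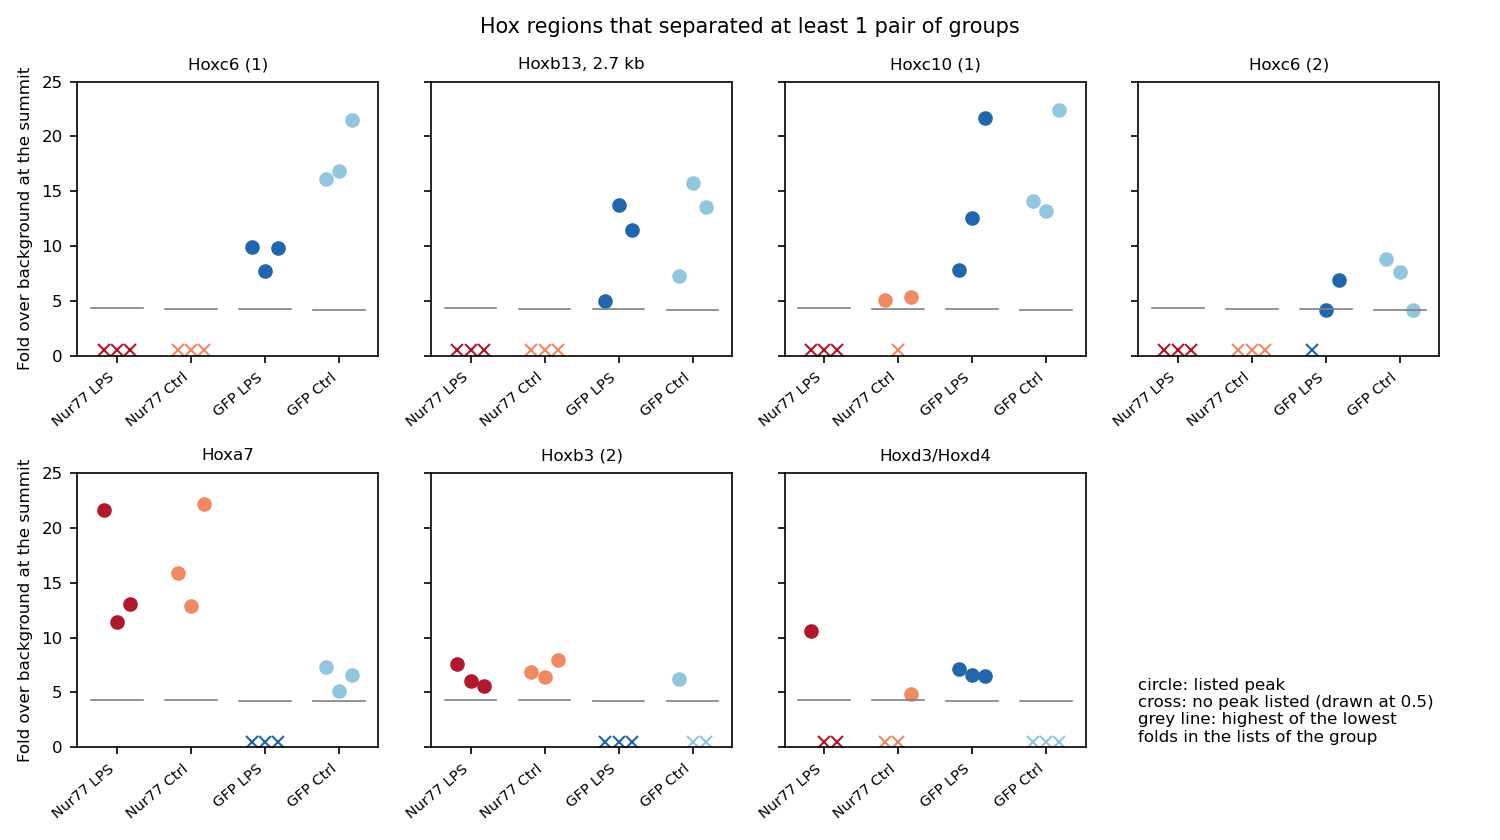
Fold over background at the summit (y axis) of the 7 Hox regions that separated at least 1 pair of groups, by group (x axis), with 1 symbol per library. Circles are listed peaks, crosses at 0.5 mark libraries with no listed peak, and the grey line is the highest of the lowest folds in the lists of the group. Of the first 4 panels, only that of Hoxc10 region 1 has listed Nur77 values (5.12 and 5.32), which stand below its GFP values. In the Hoxa7 panel the 6 Nur77 values, from 11.41 to 22.18, stand above the 3 listed GFP values.

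Calls in the 6 Nur77 and 6 GFP libraries were set against each other by Fisher's exact test (two-sided) at the 20292 regions called in 4 to 8 libraries, 14 of them Hox regions. After Benjamini-Hochberg adjustment no Hox region passed 0.05, and none of all tested regions did (0.0%), since the smallest p this design allows, 0.00216, became 0.0923. That p was reached by Hoxc6 region 1 and by the region 2.7 kb from Hoxb13. Before adjustment, 3 Hox regions were called less often in the Nur77 line (7.32% of the tested regions), the third being Hoxc6 region 2 with an exact p of 0.0152 and an adjusted p of 0.19. One was called more often (0.651% of the tested regions), Hoxb3 region 2, also with an exact p of 0.0152 and an adjusted p of 0.19. Before adjustment in lists of equal length, 1 Hox region was called less often and 1 more often. Hoxa7 was called in 9 libraries and was not in the tested range.

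Few Hox regions separated the LPS-treated from the untreated libraries. In the GFP line 1 Hox region was called in 3 of 3 LPS and 0 of 3 untreated libraries (1.96% of all regions), and 1 in 0 of 3 LPS and 3 of 3 untreated libraries (1.02% of all regions). The gained region, over Hoxd4 (chr2:74722836-74723416), had peaks of 7.09, 6.56 and 6.53 fold in the GFP LPS libraries and none in the untreated GFP libraries. It also had a peak of 10.57 fold in Nur77 LPS replicate 1 and of 4.88 fold in untreated Nur77 replicate 3. The lost region was the one at Hoxa7. In the Nur77 line no Hox region separated the treatments in either direction, where 1.94% of all regions were gained with LPS and 0.46% lost. In lists of equal length none did in the GFP line and 1 did in the Nur77 line.

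Over both lines, no Hox region was called in all 6 LPS and no untreated library (0.568% of all regions) or the reverse (0.05% of all regions). Fisher's exact test gave 0 Hox regions at an adjusted p under 0.05 (0.0% of the tested regions) and 0 before adjustment (5.56% of the tested regions more often called and 1.48% less often called with LPS). The counts leaned one way: 15 of the 43 Hox regions were called in fewer LPS than untreated libraries and 5 in more, while over all regions 24.84% were called in fewer and 26.06% in more. The libraries of the GFP LPS group called 23, 27 and 37 Hox regions and those of the untreated GFP group 30, 34 and 34, and those of the Nur77 LPS group called 30, 24 and 27 and those of the untreated Nur77 group 32, 21 and 32. The LPS and untreated ranges overlapped in both lines.

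Strength was compared as the rank of a region among the 26378 regions called in all 12 libraries, a set of the same size in each library, with 0 the weakest and 100 the strongest. The 15 Hox regions called throughout were tested in 1 limma fit over all 26378, with Benjamini-Hochberg adjustment. With LPS in the GFP line, 1 Hox region was lower and none higher, where 8.54% of all tested regions were lower and 10.3% higher. This was Hoxc6 region 4, ranked at 2.84, 9.17 and 7.57 in the GFP LPS libraries and at 29.48, 18.83 and 16.83 in the untreated GFP libraries. The groups did not overlap, and the rank fell by 15.18 percentile points (95% interval −23.79 to −6.58, limma adjusted p = 0.0155). Without GFP LPS replicate 1 the adjusted p was 0.059, and without untreated GFP replicate 1 it was 0.0761. Before adjustment 4 Hox regions were lower (16.6% of all tested regions) and none higher (15.2%). In all, 14 of the 15 Hox regions had a lower mean rank with LPS in the GFP line, with a median difference of −6.21 points, against −1.04 points and 56.87% lower over all tested regions.

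In the Nur77 line no Hox region passed the threshold for LPS, where 8.28% of all tested regions were higher and 5.95% lower. Before adjustment 1 Hox region was higher and 2 were lower (13.0% and 13.6% of all tested regions). The lowest adjusted p, 0.0528 by limma, belonged to Hoxb6 region 2, at 10.84 ± 3.61 in the Nur77 LPS group and 27.75 ± 6.94 in the untreated Nur77 group (SD, n = 3 each). The other Hoxb6 region had means of 41.26 ± 2.25 in the Nur77 LPS group and 26.03 ± 11.69 in the untreated Nur77 group (limma adjusted p = 0.128). The difference between the LPS effects of the lines passed for no Hox region, by limma (0.0152% of all tested regions were higher and 0.00379% lower), with a lowest adjusted p of 0.659. Before adjustment none passed either (4.11% of all tested regions were higher and 4.14% lower).

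Between the lines without LPS, 1 Hox region ranked lower in the Nur77 line and none higher, where 4.91% of all tested regions were lower and 2.92% higher. This was Hoxc6 region 3, ranked at 0.30, 6.70 and 9.15 in the untreated Nur77 libraries and at 30.94, 17.43 and 14.53 in the untreated GFP libraries. The groups did not overlap, and the rank fell by 15.58 points (95% interval −25.21 to −5.95, limma adjusted p = 0.046). Before adjustment 3 Hox regions, all in Hoxc, were lower (11.1% of all tested regions) and none higher (10.1%). The call stood at the edge of the threshold, since leaving out any 1 of the 12 libraries ended it except untreated GFP replicate 3 and GFP LPS replicate 1, with adjusted p-values up to 0.185 (without untreated GFP replicate 1). The other 2 Hoxc regions had differences of −9.97 points (Hoxc6 region 4, limma adjusted p = 0.163) and −15.90 points (Hoxc4, limma adjusted p = 0.0935).

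With LPS no Hox region passed between the lines, by limma, where 3.13% of all tested regions were higher and 5.47% lower in the Nur77 line. Before adjustment 3 Hox regions were higher and none lower (11.2% and 11.9% of all tested regions). The Hoxb13 region had means of 19.50 ± 8.53 in the Nur77 LPS group and 1.35 ± 1.29 in the GFP LPS group (limma adjusted p = 0.111), and Hoxb3 region 1 had means of 54.25 ± 3.22 and 36.12 ± 14.24 in the same 2 groups (SD, n = 3 each; limma adjusted p = 0.119). The comparisons share groups: the untreated GFP libraries serve 2 of them, and so does each other group.

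**Figure D5:**
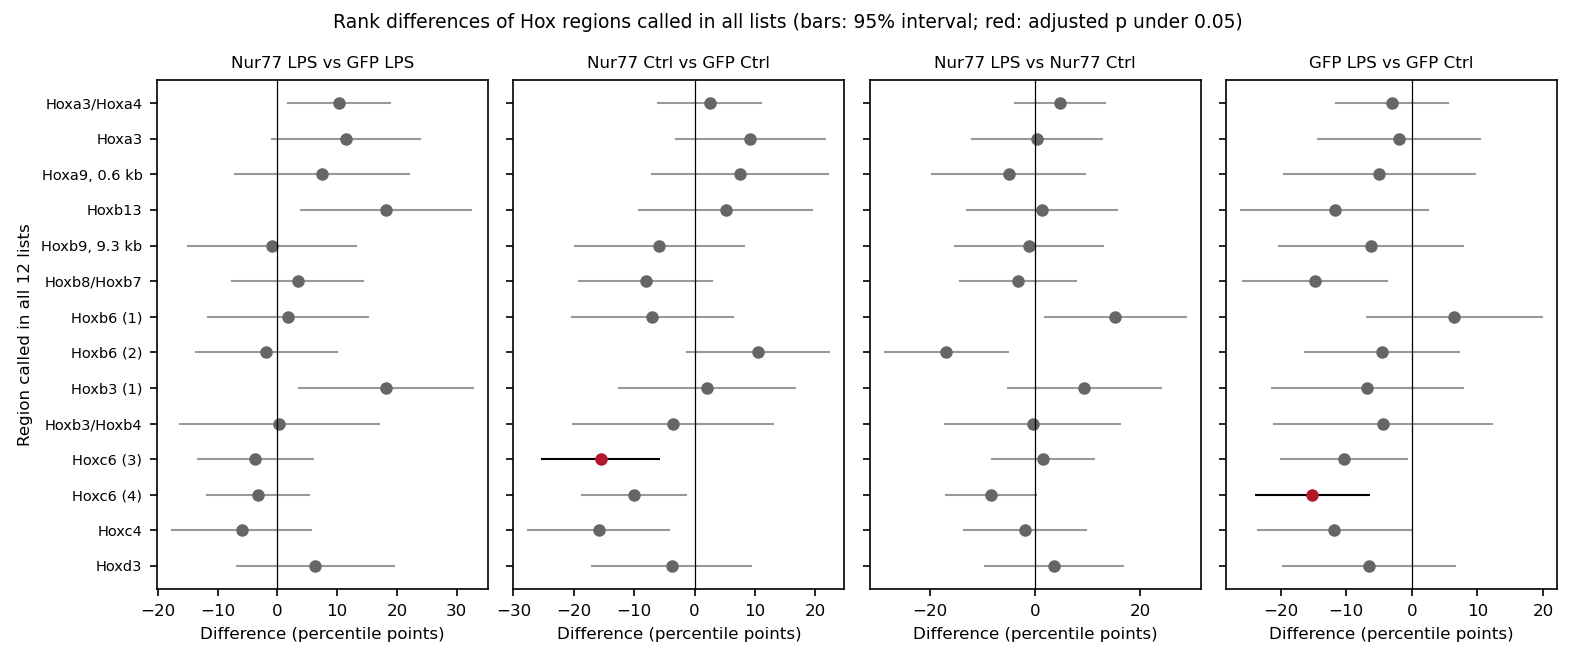
Difference in rank (x axis, percentile points among the regions called in all libraries) for 14 Hox regions called throughout (y axis), in the 4 comparisons, with the group named first minus the second. Points are limma estimates, bars 95% intervals, and red points passed an adjusted p of 0.05. Hoxc6 region 4 is red for LPS in the GFP line and Hoxc6 region 3 for Nur77 against GFP without LPS, and in the GFP LPS panel 13 of 14 points lie below 0.

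Genes that work with Hox proteins or act on the clusters were read against the 50.21% of all protein-coding genes with a gene-end region called in all 12 libraries. Their rank calls stand beside the shares of all tested regions that passed. For LPS these were 10.3% higher and 8.54% lower in the GFP line, and 8.28% and 5.95% in the Nur77 line. For Nur77 against GFP they were 2.92% and 4.91% without LPS, and 3.13% and 5.47% with LPS. Whether a list differed from these shares was not tested. Of 9 genes for TALE cofactors, which bind DNA together with Hox proteins, 5 had such a region (55.56%, near the share of all genes), the strongest at Pknox1 (98.66 ± 1.69), Pbx3 (96.49 ± 2.42) and Pbx2 (90.25 ± 2.18) (percentile, SD, n = 12 each). Meis1, the partner of Hoxa9 in leukaemia, had none, and neither did Pbx4. A region at Pknox2 (chr9:36890468-36890969) was called in 0 of 3 untreated Nur77 and 3 of 3 untreated GFP libraries (3.4% of all regions separated this way). With LPS it was called in 2 of 3 Nur77 and 1 of 3 GFP libraries. A second region at Pbx2 (chr17:34597651-34598405) was called in 0 of 3 Nur77 LPS libraries, 3 of 3 untreated Nur77 libraries and 0 of 3 untreated GFP libraries. It was also called in 1 of 3 GFP LPS libraries, and its peaks stood near the bottom of their lists (4.05 ± 2.47, SD, n = 4). Over all regions, 0.46% were lost with LPS in the Nur77 line and 0.308% gained in the untreated Nur77 line in this way. The Pbx3 region ranked higher in the Nur77 LPS group (95.45 ± 0.49) than in the GFP LPS group (87.40 ± 5.46; SD, n = 3 each; limma adjusted p = 0.0157).

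Of 21 Polycomb genes 20 had a gene-end region called in all 12 libraries (95.24%, against 50.21% of all protein-coding genes), with Cbx7 the exception. The strongest were at Pcgf2 (97.83 ± 0.63), Phf1 (97.72 ± 1.30) and Cbx8 (97.02 ± 2.09) (SD, n = 12 each). The region at Ezh2, the histone H3 lysine 27 methyltransferase, ranked higher in the Nur77 LPS group (84.72 ± 2.72) than in the GFP LPS group (72.34 ± 4.68; SD, n = 3 each; limma adjusted p = 0.0141). At Phf19, which recruits Polycomb complex 2, the rank was 50.11 ± 6.64 in the untreated Nur77 group and 18.85 ± 12.38 in the untreated GFP group (limma adjusted p = 0.0045). At Cbx6 it was 32.32 ± 5.38 in the GFP LPS group and 49.37 ± 0.63 in the untreated GFP group (limma adjusted p = 0.0399). The remaining tested gene-end regions of this list passed in no comparison.

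Of 11 genes for Trithorax-type factors and histone demethylases, 9 had a gene-end region called in all 12 libraries (81.82%, against 50.21% of all protein-coding genes), Ash2l and Dpy30 being without one. The strongest were at Kmt2b (98.63 ± 0.73), Kdm6b, the LPS-inducible H3 lysine 27 demethylase (97.69 ± 0.97), and Dot1l (96.29 ± 1.93) (SD, n = 12 each). A region at Wdr5 ranked lower in the GFP LPS group (61.73 ± 4.98) than in the untreated GFP group (74.84 ± 5.57; limma adjusted p = 0.0337), and one at Dot1l higher in the Nur77 LPS group (90.47 ± 1.36) than in the untreated Nur77 group (81.26 ± 4.95; SD, n = 3 each; limma adjusted p = 0.0086).

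None of the 6 caudal and ParaHox genes, homeobox relatives of the Hox genes, had a gene-end region called in all 12 libraries, and Gsx1 alone had one, called in 11. Of 13 genes beside the clusters, 11 were matched and 7 had a gene-end region called in all 12 (63.64%), the strongest at Calcoco1 (95.72 ± 1.35), Hibadh (95.38 ± 1.35) and Skap2 (95.28 ± 2.09) (SD, n = 12 each). Evx1 and Evx2, homeobox genes at the ends of the Hoxa and Hoxd clusters, had none, and neither did Ttll6. The region at Calcoco1, a neighbour of the Hoxc cluster, ranked higher in the Nur77 line both with LPS (93.39 ± 1.39, against 87.51 ± 0.82 in the GFP LPS group; limma adjusted p = 0.0089) and without (93.78 ± 1.85, against 89.03 ± 0.92 in the untreated GFP group; SD, n = 3 each; limma adjusted p = 0.0303).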

How the data were processed

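ATAC-seq peak lists of 12 libraries in 4 groups were used, 1 list per library in mm10 coordinates. The submitters' processing notes name the tools cutadapt 2.6 and DiffBind 3.0.15. Aligner and peak caller: not given in the sources used here. The names that the deposited lists give to peaks mention mapping quality 20, mitochondrial and duplicate reads taken out, and q 0.001. The deposited score is the authors' whole number per peak, the deposited fold is their ratio of the summit to background, and −log10 p and −log10 q are also the authors'. All were used within a list alone.

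Rows with the same start and end were collapsed, peaks outside chromosomes 1 to 19, X and Y were dropped, and overlapping or touching peaks were merged into 100374 regions. Coordinates are 1-based. Gene spans, promoter windows and microRNAs came from RefSeq tables of GRCm38.p6. Calls were compared by Fisher's exact test and ranks by limma 3.58.1 (R 4.3.3, trend), tested on simulated data first. Software was scipy 1.17.1, pandas 2.3.3, numpy 2.4.6 and matplotlib 3.10.9 under Python 3.11.15. The genes, gene lists and tests were chosen with earlier results of these data known. Regions named are those called in all 12 libraries, those that separate 2 groups, those past a test and the 3 of each cluster called most often. Further regions are named to account for every gene, the distance limit and the neighbours of the regions above, chosen after their values were seen. Genes of the lists are named where a gene-end region separates groups or passes a test, with the 3 strongest of each list. Some genes and regions that these rules pick are counted in the totals but not reported here. Alternatives were lists of equal length, a stricter q, a larger overlap, other distances, leaving out libraries, a replicate block, ranks of the fold and normal scores.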

Additional observations from a re-analysis of the deposited data

How the results depend on the processing

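With lists of equal length, 26 Hox regions were found in at least 2 lists (43 with full lists) and 9 in all (15), none of them in Hoxc (3). The separating Hox regions then numbered 0 for LPS in the GFP line (2) and 1 for LPS in the Nur77 line (0), and the rank calls between the untreated lines 0 (1). That last count was also 0 at a −log10 q of at least 5. With a peak required to cover the better part of the region (at least 50% of it, chosen after seeing the data), 3 regions were called in all lists, 0 separated LPS in the GFP line, 6 separated the untreated lines (3 otherwise), and the rank calls for LPS in the GFP line and between the untreated lines were 0 each. Every peak lies inside its merged region, so the milder planned overlap changed no count. Within 0 bp of the genes 25 regions remained. Within 50 kb, or without the shortest and the longest list (chosen after seeing the data), 1 region separated LPS in the Nur77 line. With normal scores, rank calls were 2 for LPS in the GFP line and 1 between the LPS-treated lines. Correlations of same-numbered libraries of different groups ran from −0.18 to 0.161, 2 of them over 0.1. Those of differently numbered libraries ran from −0.16 to 0.239, so the numbers showed no clear pairing. With the replicate block, rank calls were 1 for LPS in the Nur77 line and 0 between the untreated lines, where the adjusted p of Hoxc6 region 3 was 0.0521, and the other 3 rank counts kept their values.

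Leaving out 1 library gave 39 to 43 regions, 15 to 16 in all lists, and separating regions of 2 to 3 for LPS in the GFP line, 0 to 1 for LPS in the Nur77 line (1 without untreated Nur77 replicate 1 or 2), 3 to 6 between the untreated lines (6 without untreated GFP replicate 1) and 5 to 7 between the LPS-treated lines. Rank calls ran from 0 to 2 for LPS in the GFP line, 0 to 1 for LPS in the Nur77 line, 0 to 2 between the untreated lines and 0 to 1 between the LPS-treated lines, and were 0 for the difference of the LPS effects. The causes were not tested. Lists without read counts give no value to a region with no peak, so an uncalled region may lie just under the threshold of the caller.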

Other observations

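Beyond 10 kb, regions in the flanks of the clusters included some stronger than most Hox regions. A region 42.3 kb from Hoxa13 (chr6:52303199-52304103) was called in all 12 libraries at a percentile of 75.12 ± 4.77 (SD, n = 12). A neighbour 45.0 kb from Hoxa13 (chr6:52305882-52306384) was called in none of 6 Nur77 and all 6 GFP libraries, at 42.93 ± 14.51 (SD, n = 6). A region 48.0 kb from Hoxb13 (chr11:96145374-96146341) was called in 11 libraries at 62.15 ± 7.45 (SD, n = 11). On the other side of that cluster, a region 32.4 kb from Hoxb1 (chr11:96400611-96401269) had a peak in each of the 6 LPS libraries and in 0 of 6 untreated ones, at 31.21 ± 14.26 (SD, n = 6). These regions were picked after their values were seen.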
